A study of Homo sapiens with 6 samples.

Results

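Genes that carry iron into the cell, store it, release it or sense it, 10 in all, were followed in WM-266-4 melanoma cells with and without cancer-testis antigen 16 (CT16, gene symbol PAGE5). They were CYBRD1, TFRC, SLC11A2, SLC39A14, STEAP3, FTL, FTH1, SLC40A1, ACO1 and IREB2, and every probe that the platform annotation assigns to one of these symbols was taken, whatever its signal. Of the 10 genes, 8 had an annotated probe, out of 18665 genes with a probe in the series, and together they had 13 probes. FTH1, the ferritin heavy chain, and IREB2, iron regulatory protein 2, had no listed probe and were not analysed here.

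WM-266-4 is an established human melanoma cell line. Both groups were stably transfected with the plasmid pEXPR-IBA103 and selected with the antibiotic G418. The 3 CT16 cultures carried the plasmid with CT16 cDNA, and the 3 control cultures carried the intact vector without an insert. All were grown in DMEM with fetal bovine serum, and the sources used here do not say whether each transfected line was a clone or a mixture of resistant cells. Whether the 3 replicates of a group were separate cultures or repeat RNA extractions is not stated either, and they are called cultures here. Their spread cannot be taken as the spread between independent transfections. Total RNA of each culture was measured on 1 Illumina Human-6 bead array.

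Dietary or extracellular ferric iron has to be reduced to ferrous iron before a transporter can move it, while most cells in culture take up iron bound to transferrin through the transferrin receptor and release it inside acidified endosomes. Iron that is not used is stored in the ferritin shell, and ferroportin is the known route of export. When iron is scarce, the iron regulatory proteins bind hairpins called iron-responsive elements. Binding in the 5′ end of the ferritin messages blocks their translation, and binding in the 3′ end of the transferrin receptor message protects it from decay, so an array that measures RNA reads the second effect and largely misses the first.

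Sequences of FTL and TFRC show 1 element of translational control and 1 promoter element, both taken from RefSeq on assembly GRCh38.p14 and printed 5′ to 3′ on the strand of the gene. The first is a stretch of the 5′ untranslated part of the FTL message at chr19:48965329-48965358, plus strand, with the loop CAGTGN of the iron-responsive element in capitals. The second is the proximal TFRC promoter at chr3:196082101-196082220, minus strand, with the core of a hypoxia response element, ACGTG, in capitals.
FTL: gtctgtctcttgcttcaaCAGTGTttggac
TFRC: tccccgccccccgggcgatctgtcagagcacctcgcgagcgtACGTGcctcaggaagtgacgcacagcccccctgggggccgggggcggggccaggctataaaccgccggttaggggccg
The FTL loop starts at transcribed base 39. The letters CAGTGN occurred on the sense strand within the first 50 transcribed bases of 6.36% of 35116 RefSeq start sites. Among the 13 start sites listed for 8 of the 10 iron genes, FTL was the gene that had these letters there. FTH1 and SLC39A14 had no listed start site, and bases past the first 50 were not searched, so elements elsewhere would be missed. The TFRC core starts 88 bases before the start of transcription. ACGTG occurred on either strand in 21.4% of windows that ran from 250 bases before to 50 bases after a start, and among the iron genes the windows of TFRC and FTL held it. The antioxidant response core TGACNNNGC was in none of the windows of these genes, against 13.3% of all windows. Of the metal response core, the form TGCGCNC was in a window each of CYBRD1, TFRC, SLC40A1 and IREB2, against 20% of all windows. The form TGCACNC was in none, against 12.1%. A match or its lack is a description of these letters.

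A pair of arrays differed from the rest before any group was compared. CT16 replicate 3 had a mean correlation of 0.901 with the other arrays, whose own means were 0.960 to 0.967, and 33.2% of its probes were detected at a detection p under 0.01, against 35.1% to 38.5% elsewhere. Its deviations from its group mean correlated at 0.75 over all tested probes with those of control replicate 1. Over all genes, 27 of 11264 (0.24%) passed the threshold, 145 (1.29%) without CT16 replicate 3 and 290 (2.57%) without both arrays. Without control replicate 1 alone, 3 passed. The mean correlation of control replicate 1 with the other arrays was 0.961, so by that measure only CT16 replicate 3 stood apart. The values of the iron genes are given with and without these arrays. The fit without both kept only control replicates 2 and 3 and CT16 replicates 1 and 2. Both arrays were left out after the data were seen because they stood apart, a choice that by itself lowers the spread within groups. PAGE5 itself gave 80.7, 84.6 and 94.2 signal units on the control arrays and 117, 120 and 171 on the CT16 arrays on the probe with the clearest difference (1.11 on the log2 scale, limma adjusted p = 0.582, and 0.68 without CT16 replicate 3), while its second probe did not separate the groups and the third was not detected. Apart from the arrays, the paper reports that its stable CT16 line makes both the message and the protein. It measured them with PCR, a protein blot and antibody staining, and staining of the empty-vector line was background only. Why the PAGE5 signals on the arrays stayed dim was not tested. Of 9 melanocyte and melanoma markers with a probe, 8 were detected on all 6 arrays, and the globin genes HBA1, HBA2 and HBB were detected on none. Of 10 leukocyte markers, CD14, CD68, AIF1 and FCER1G were detected on all 6 arrays, CD79A on 5, and PTPRC, CD163, MRC1, CSF1R and CD3E on none.

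Among the iron genes, 7 had a probe that was tested, and 0 of 7 passed an adjusted p under 0.05 (limma), beside 0.24% of all genes. At an unadjusted p under 0.05 the count was also 0, beside 6.41% of all genes. The mean was lower in CT16 for 4 genes and higher for 3, and the median log2 difference was -0.09, beside -0.03 over all genes. Without CT16 replicate 3 it was lower for 3 and higher for 4, with a median of 0.00. For 1 of the 7, CYBRD1, the CT16 and control arrays did not overlap, beside 14.2% of all genes. Signals below are fluorescence units before normalization, and a difference is the CT16 mean minus the control mean of log2 values after background correction and quantile normalization. In the plot of signals by array, CYBRD1, TFRC and SLC11A2 reached their lowest values on the same array.

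**Figure D1:**
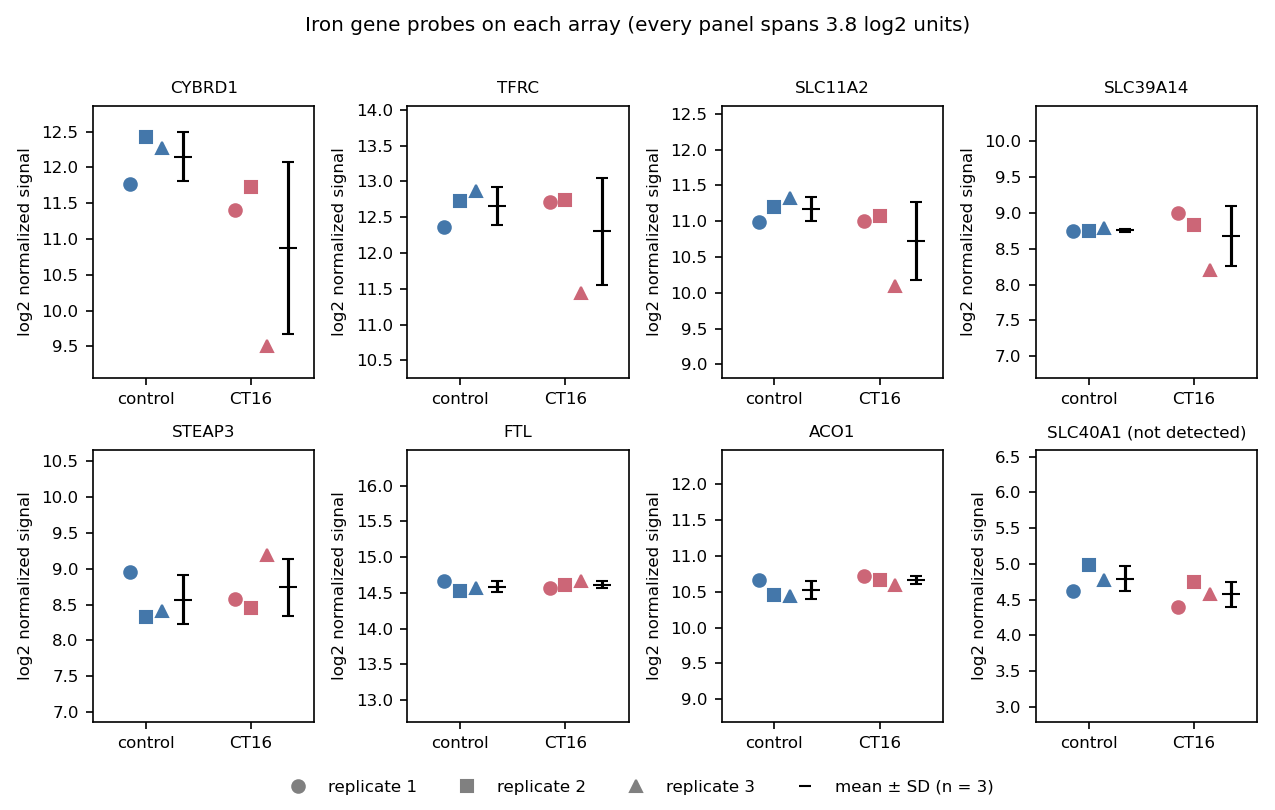
Log2 normalized signal (vertical axis) of 1 probe per gene on the 3 control (blue) and 3 CT16 (red) arrays, with the mean and SD of each group in black and the replicate number shown by the marker. All panels span the same number of log2 units, each centred on its own values, so levels cannot be compared by height between panels. CT16 replicate 3 (triangle) was the lowest array for CYBRD1, TFRC, SLC11A2 and SLC39A14 and the highest for STEAP3, and SLC40A1 was not detected on any array.

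CYBRD1 encodes duodenal cytochrome b, a membrane reductase that turns ferric into ferrous iron, and it had the largest difference of the 7 genes. Its brighter probe (ILMN_2087692) gave 3205, 5734 and 4897 units on control replicates 1, 2 and 3 and 2641, 3546 and 638 on CT16 replicates 1, 2 and 3. The CT16 arrays lay at the low end, with 1 of them far below the others, and CT16 replicate 2 exceeded control replicate 1 in units before normalization. After normalization these 2 arrays stood at 11.72 and 11.76 on the log2 scale, which separated the groups by 0.04. The mean difference was -1.27 ± 0.56 (SE, n = 3 per group), or 2.42-fold lower in CT16, with a 95% confidence interval of -2.59 to 0.04, which was not past the threshold (adjusted p = 0.81, limma). In RNA of whole cultures, fewer cells with CYBRD1 RNA and less CYBRD1 RNA per cell cannot be told apart. The second probe (ILMN_1712305) read 2776, 5203 and 4466 units in control and 2298, 3252 and 520 in CT16. It gave a similar difference of -1.32 (adjusted p = 0.822), with groups that overlapped after normalization, and both probes measure the same RNA and are not separate evidence.

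The size of the CYBRD1 difference rested on 1 array. Without CT16 replicate 3 it was -0.59, with an interval of -1.13 to -0.04 and an adjusted p of 0.39 (limma). Without both arrays that stood apart it was -0.78, or 1.72-fold lower, on the brighter probe and -0.81 on the other, with adjusted p of 0.0718 and 0.0806, and the groups did not overlap on either probe, as for 49.8% of all genes then. The direction was the same in each of these fits and the threshold was passed in none of them. Summed signals of 6 fibroblast markers were lower in CT16 as well, at 2159 to 2653 units against 4954 to 7510 in control, most of it from COL1A2. In control its mean log2 signal was 12.46, beside 4.59 to 7.41 for the other markers of the list. Of that list COL1A2 was detected on all 6 arrays and LUM on 5, with differences of -1.81 (limma, adjusted p = 0.0877) and -1.87 (adjusted p = 0.1). PDGFRA, also detected on all 6, was at 0.33 (adjusted p = 0.959), THY1 was detected on 3 and rose by 3.63 (adjusted p = 0.0081), and COL1A1 and DCN were detected on 1 of 6 each. The part of these markers in the CYBRD1 result was not tested.

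**Figure D2:**
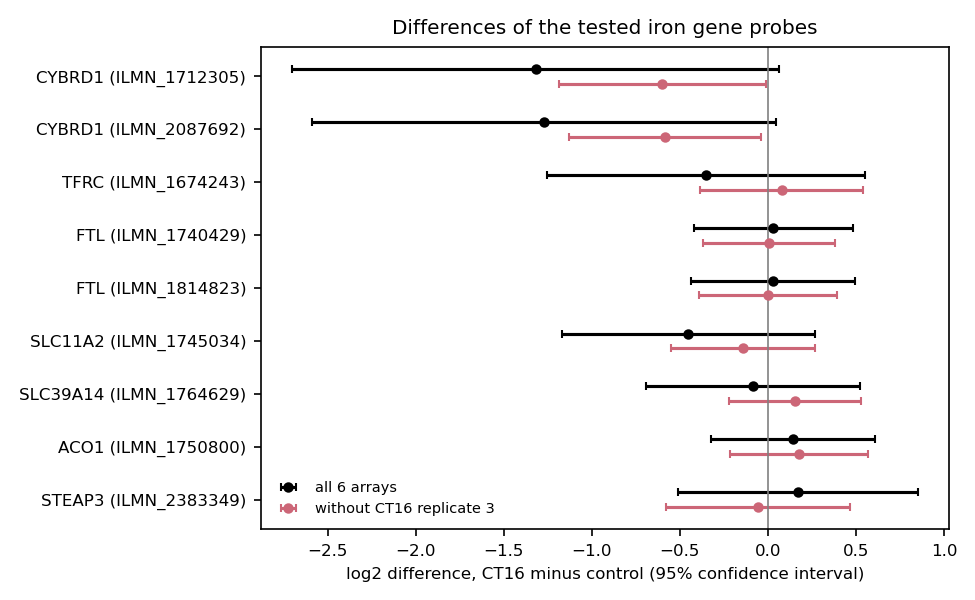
Log2 difference, CT16 minus control (horizontal axis), with its 95% confidence interval for the 9 tested probes of 7 iron genes, from all 6 arrays (black) and without CT16 replicate 3 (red). With all arrays each interval spans 0, and without that array the CYBRD1 difference shrinks from -1.27 to -0.59 while the TFRC difference moves from -0.35 to 0.08.

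TFRC encodes transferrin receptor 1, the main entry route of transferrin-bound iron. Its probe (ILMN_1674243) gave 4871, 7094 and 7321 units in control and 6433, 7030 and 2843 in CT16. The CT16 values of replicates 1 and 2 lay inside the control range and replicate 3 lay below it. The difference was -0.35 ± 0.38 (SE), with an interval of -1.25 to 0.55 (limma, adjusted p = 0.959). Without CT16 replicate 3 its sign turned, to 0.08 with an interval of -0.38 to 0.54, and without both arrays it was -0.07. The interval of this last fit was -0.37 to 0.24, and it held rises and falls of TFRC RNA alike.

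SLC11A2 encodes divalent metal transporter 1, which moves ferrous iron out of the endosome, and SLC39A14 encodes ZIP14, which takes up iron that is not bound to transferrin. SLC11A2 (ILMN_1745034) read 1899, 2550 and 2630 units in control and 2025, 2346 and 1019 in CT16, and its difference was -0.45 ± 0.31 (SE, adjusted p = 0.959). The control and CT16 ranges overlapped apart from CT16 replicate 3, and without it the difference was -0.14, with an interval of -0.55 to 0.27. SLC39A14 (ILMN_1764629) read 432, 516 and 512 units in control and 545, 555 and 266 in CT16. Here CT16 replicates 1 and 2 were above all 3 control arrays and replicate 3 was below them, so the difference of -0.09 ± 0.26 (SE, adjusted p = 0.979) became 0.15 without replicate 3, with an interval of -0.22 to 0.53.

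STEAP3, the ferrireductase of the transferrin endosome, had 3 probes, of which 1 was detected. That probe (ILMN_2383349) gave 495, 399 and 408 units in control and 421, 439 and 508 in CT16, with its highest values on control replicate 1 and CT16 replicate 3. The groups overlapped, and the difference was 0.17 ± 0.29 (SE, adjusted p = 0.967), which turned to -0.06 without CT16 replicate 3. The other probes (ILMN_1761577 and ILMN_2281089) were not detected on any array, with detection p of at least 0.291.

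FTL, the ferritin light chain, was the storage gene that could be read. On ILMN_1740429 the signals were 25057, 23651 and 24006 units in control and 23428, 24825 and 28388 in CT16. These lay close to the brightest signal of each array, which ranged from 29707 to 32331 units, and compression of differences near that limit was not tested. The second probe (ILMN_1814823) read 20789, 19408 and 18524 units in control and 19926, 18689 and 23552 in CT16. The groups overlapped on both probes, the difference was 0.03 ± 0.19 (SE, adjusted p = 0.987) on the brighter one and 0.03 on the other, and the interval on the brighter one was -0.42 to 0.48. Without CT16 replicate 3 the difference was 0.00. Of ferritin heavy chain relatives, chosen after their values were seen, a probe annotated to the pseudogene FTH1P3 (ILMN_2173835) read 578, 410 and 423 units in control and 485, 512 and 584 in CT16, with a difference of 0.27 (adjusted p = 0.959). How much of that signal came from FTH1 or from other near-identical copies was not tested, and FTHL17 was not detected.

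SLC40A1 encodes ferroportin, the iron exporter. Its first probe (ILMN_1761833) read 63, 72 and 65 units in control and 55, 65 and 60 in CT16, and its second (ILMN_2053103) read 54, 58 and 63 units in control and 64, 68 and 50 in CT16. All readings lay around the median signal of the arrays, 63.6 to 65.6 units, and the lowest detection p was 0.0347 on the first probe and 0.0531 on the second. Ferroportin RNA was therefore not detected in either group, no fold change was computed, and a difference below the detection limit could not be seen.

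ACO1 encodes iron regulatory protein 1, which is an aconitase when it holds an iron-sulfur cluster and binds RNA when it does not. Its probe (ILMN_1750800) gave 1513, 1548 and 1461 units in control and 1681, 1817 and 1484 in CT16. The ranges overlapped, and the difference was 0.14 ± 0.20 (SE), with an interval of -0.32 to 0.61 (limma, adjusted p = 0.961). It was 0.17 without CT16 replicate 3 and 0.25 without both arrays. The switch between the forms of this protein is not measured by an RNA array.

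The iron genes differed in how far they stood from their group on CT16 replicate 3. On CT16 replicate 3, against the mean of the other 2 CT16 arrays, CYBRD1 was lower by a log2 difference of -2.06, TFRC by -1.29, SLC11A2 by -0.94 and SLC39A14 by -0.72. STEAP3 stood at 0.67 on the same scale, FTL at 0.08 and ACO1 at -0.09. For CYBRD1 this placed it among the most affected genes, since 2.91% of all genes had a lower value, but TFRC and SLC11A2 were within a wide spread, with 15.5% and 23.6% of genes below them. On that array 22.1% of all genes were lower by more than 1 and 14.3% were higher by more than 1.

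Control replicate 1 differed from its group in part in the same way. CYBRD1 stood at -0.58 against the other 2 control arrays, TFRC at -0.44, SLC11A2 at -0.27 and STEAP3 at 0.59, with 14.6%, 21.1%, 29.6% and 91.4% of all genes below them. SLC39A14, which was low on CT16 replicate 3, was at -0.01 there. The labels name nothing that these 2 cultures shared. The spread was small for FTL and ACO1, whose SDs of log2 signal were 0.08 and 0.13 in control and 0.05 and 0.06 in CT16. CYBRD1 had SDs of 0.34 in control and 1.20 in CT16, and SLC39A14 had SDs of 0.02 and 0.42. Quantile normalization sets values by rank, and FTL, near the top of each array, stood at 14.67 on both control replicate 1 and CT16 replicate 3. Before normalization its SDs were 731 units in control and 2558 in CT16. The part of normalization in its small log2 spread was not tested.

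**Figure D3:**
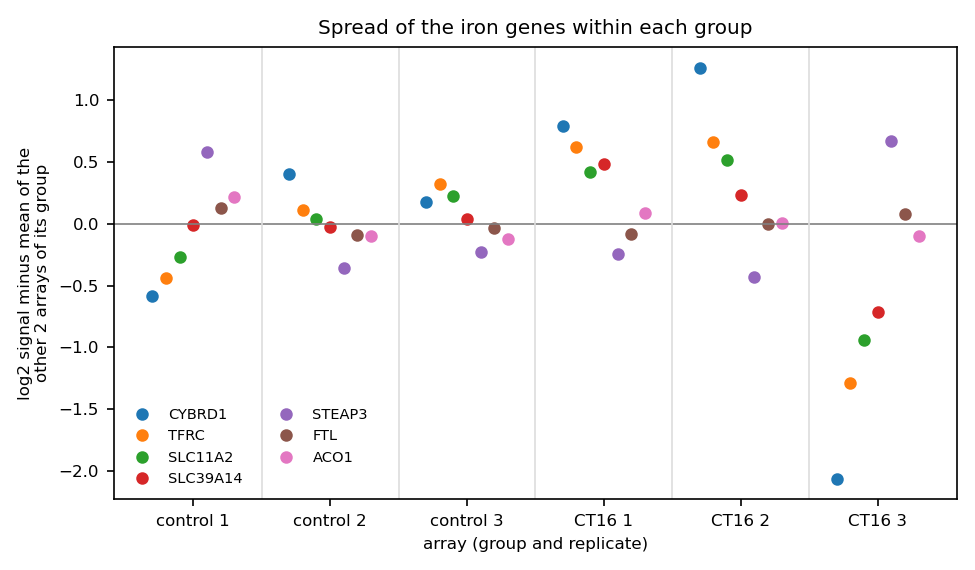
Log2 signal of each tested iron gene on an array minus the mean of the other 2 arrays of the same group (vertical axis), for the 6 arrays (horizontal axis). On CT16 3 the points run from -2.06 (CYBRD1) to 0.67 (STEAP3), and on control 1 the same genes mark the ends, at -0.58 and 0.59.

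The wider iron pathway was read from 7 lists of other genes, of which 68 had a tested probe. One gene passed the threshold and it rose, beside 0.16% of all genes that rose, and 0 fell, beside 0.0799%. At an unadjusted p under 0.05 there were 7, or 10.3%, beside 6.41% of all genes, with 3 higher and 4 lower in CT16, beside 3.31% and 3.1% of all genes. Of these 7, 4 were among the 9 tested genes of the list of other entry routes. The lists were chosen with earlier results of these data known, so these counts and shares are descriptive only. The plot of differences by list shows the 7 genes against the remaining genes. The groups did not overlap for 14 of the 68 genes, beside 14.2% of all genes. The median difference of the 68 genes was -0.05, beside -0.03 over all genes, and 0.00 without CT16 replicate 3.

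**Figure D4:**
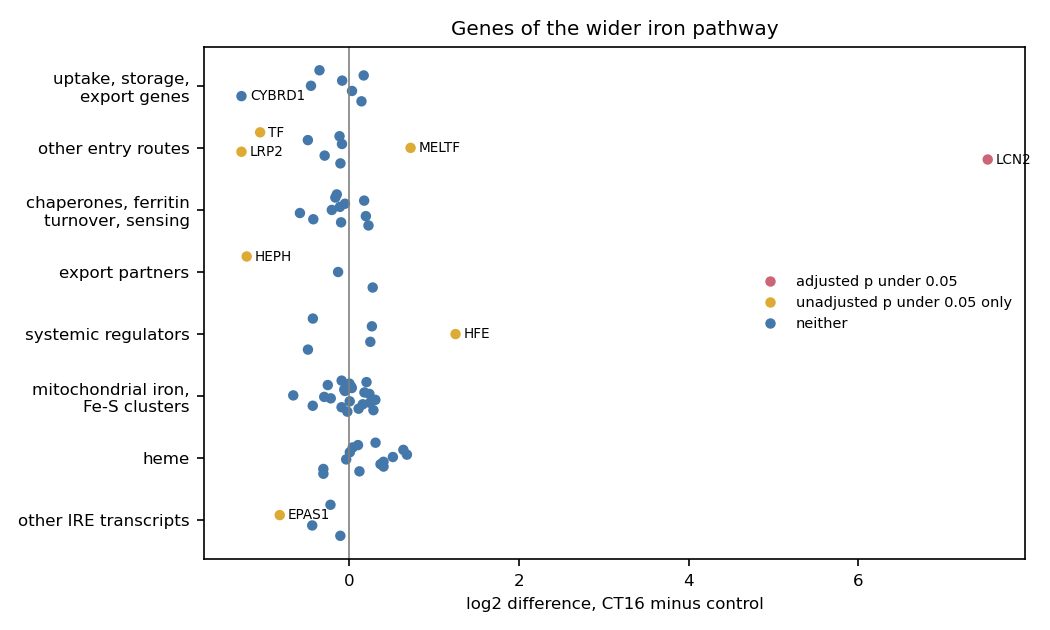
Log2 difference, CT16 minus control (horizontal axis), of each tested gene, with the uptake, storage and export genes in the top row and the 7 wider lists below. One gene, LCN2, passed the threshold (red, 7.52), and 6 others had an unadjusted p under 0.05 only (yellow), 2 higher and 4 lower in CT16.

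LCN2 encodes lipocalin 2, a secreted protein that binds iron-loaded siderophores. It gave 58, 67 and 112 units on the control arrays and 5985, 6540 and 6983 on the CT16 arrays. It was detected on 1 of 3 control arrays and was bright on all CT16 arrays, with a difference of 7.52 ± 0.41 (SE) and an adjusted p of 0.00117 (limma). The size depends on how the dim control signals are treated, and without background correction it was 6.43. SLC22A17, a receptor described for lipocalin 2, had a difference of -0.09 (adjusted p = 0.979), or -0.32 without CT16 replicate 3 (adjusted p = 0.634).

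The other genes of the entry list with an unadjusted p under 0.05 were chosen after their values were seen. TF, which encodes transferrin itself, gave 9426, 10865 and 8589 units in control and 4784, 6001 and 3621 in CT16. Every CT16 array was below every control array, and the difference was -1.05 ± 0.25 (SE), or 2.07-fold lower (limma, adjusted p = 0.301). It was -0.85 without CT16 replicate 3 (adjusted p = 0.0897) and -0.83 without both arrays (adjusted p = 0.0616). TF was also 1 of 5 liver markers, and the summed signal of these was 8887 to 11197 units in control and 3918 to 6259 in CT16, most of it from TF. ALB, APOA1 and HAMP were not detected on any array, while TTR was detected on all 6 and had a difference of -0.98 (limma, adjusted p = 0.22). The part of these markers in the TF value was not tested. LRP2, or megalin, an endocytic receptor of the kidney that takes up many carrier proteins, lipocalin 2 among them, gave 111, 106 and 107 units in control and 73, 66 and 61 in CT16. It was detected on all control arrays and on no CT16 array, so the fold has only a bound, which was 1.85-fold lower in CT16 after background correction. That bound depends on the correction, since the measured log2 difference was -1.27 with it and -0.69 without it. Its adjusted p was 0.121 with all arrays (limma). It was 0.0312 without CT16 replicate 3 and 0.0204 without both arrays, fits in which 1.29% and 2.57% of all genes passed the threshold. MELTF, melanotransferrin, an iron-binding protein of the melanoma cell surface, gave 229, 243 and 245 units in control and 360, 387 and 297 in CT16. The CT16 arrays were all above the control arrays, and the difference was 0.72 ± 0.20 (SE, adjusted p = 0.391), 0.69 without CT16 replicate 3 (adjusted p = 0.14) and 0.74 without both arrays (adjusted p = 0.0415). Its 2 dimmer probes gave 0.56 and 0.26, and the groups overlapped on the second of them.

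Of the other lists, none had a gene past the threshold with all arrays, and the gene with the smallest p of each is given. HEPH, hephaestin, a copper ferroxidase that works with ferroportin, was read at 128, 131 and 123 units in control and 77, 88 and 70 in CT16. The groups did not overlap, the signals were dim, and CT16 replicate 3 was not detected. The difference was -1.21 ± 0.23 (SE, adjusted p = 0.15), -1.08 without CT16 replicate 3 (adjusted p = 0.0477) and -0.99 without both arrays (adjusted p = 0.0345). HEPH and LRP2 were thus the genes, with LCN2, that passed the threshold when that array was left out, 3 of the 68, beside 1.29% of all genes. HFE, the hemochromatosis protein, which binds the transferrin receptor, read 71, 73 and 90 units in control and 115, 137 and 117 in CT16. It was detected on 1 of 3 control arrays and on all CT16 arrays, with a difference of 1.25 ± 0.26 (SE, adjusted p = 0.197), and its other 2 probes were not detected. Without background correction HFE was at 0.73 and HEPH at -0.71. The summed signal of 10 leukocyte markers also stood higher in CT16, at 2022 to 2537 units against 1627 to 1913, with differences of 1.41 for FCER1G, 0.85 for CD68, 0.33 for CD14, 0.21 for AIF1 and -0.20 for CD79A, none past the threshold, and the other 5 markers, PTPRC among them, not detected. Their part in the HFE and LCN2 values was not tested.

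EPAS1 encodes hypoxia-inducible factor 2 alpha, and its message has an iron-responsive element of its own. It gave 1470, 1593 and 1478 units in control and 900, 1216 and 544 in CT16. All CT16 arrays lay below the control arrays, and the difference was -0.82 ± 0.25 (SE, adjusted p = 0.511), or -0.61 without CT16 replicate 3. The 4 tested genes of its list all had negative differences with all arrays, with a median of -0.33, but without CT16 replicate 3 CDC14A was at 0.30 and the median was -0.13. Of 14 tested heme genes, 11 were positive and the median was 0.21, beside 5320 of 11264 positive over all genes, and the smallest p was that of PPOX, an enzyme of heme synthesis (0.68 ± 0.34, SE, adjusted p = 0.899). Without CT16 replicate 3, 8 of the 14 were positive, beside 5474 of 11264 genes, the median was 0.10 and PPOX was at 0.31 (adjusted p = 0.552). With all arrays none of these 14 had an unadjusted p under 0.05 (limma).

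Genes that handle iron inside the cell had no unadjusted p under 0.05 with all arrays (limma), beside 6.41% of all genes. Of 11 tested chaperones and ferritin turnover or sensing genes, 8 had negative differences, with a median of -0.11, and HERC2, a ubiquitin ligase, had the smallest p (-0.58 ± 0.28, SE, adjusted p = 0.868). FBXL5, the iron-sensing subunit that directs the decay of IREB2, was at -0.43 (adjusted p = 0.959) and, without CT16 replicate 3, at 0.00. NCOA4, the receptor that delivers ferritin for breakdown, was at -0.21 (adjusted p = 0.968), and its sign turned to 0.25 without that array. The list then had 6 positive and 5 negative differences and a median of 0.00, and HERC2 was at -0.80 (adjusted p = 0.175). The 22 mitochondrial iron and iron-sulfur cluster genes were split 11 to 11 around a median of 0.00, between -0.66 and 0.31, and IBA57, a cluster assembly factor, had the smallest p (-0.30, adjusted p = 0.959).

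**Figure D5:**
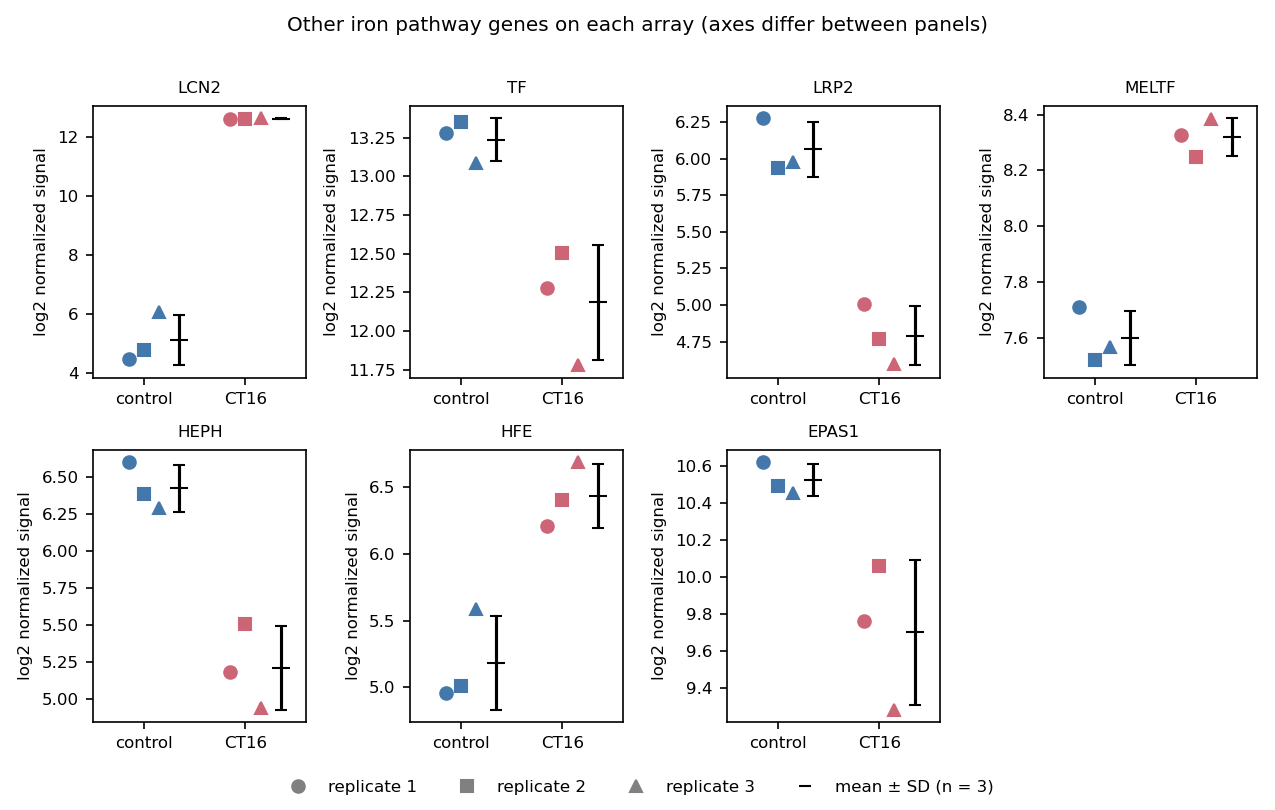
Log2 normalized signal (vertical axis) of 7 other iron pathway genes with an unadjusted p under 0.05 on the 3 control (blue) and 3 CT16 (red) arrays, with the mean and SD of each group in black and axes that differ between panels. LCN2, MELTF and HFE are higher on each CT16 array than on any control array, and TF, LRP2, HEPH and EPAS1 are lower. Selection by p on these same arrays favours such separation, which 14 of the 68 tested wider genes and 14.2% of all genes showed.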

How the data were processed

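RNA of 3 CT16 and 3 control cultures of WM-266-4 was measured on 1-colour Illumina bead arrays. The authors deposited raw probe intensities, not normalized between arrays, with a deposited detection p-value beside each. A deposited table of quantile normalized intensities was used as an alternative. The authors tested with rank products, which was not run here.

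Background was corrected with the normexp model of limma 3.58.1 (R 4.3.3), which took the negative controls from the detection p-values, with an offset of 16, followed by quantile normalization and log2. Probes with a detection p under 0.01 on at least 3 of 6 arrays were tested (18156 of 48803). A linear model with the plasmid as its term was fitted to all 6 arrays (lmFit, eBayes, two-sided, Benjamini-Hochberg over all tested probes, threshold 0.05) after a check on simulated data, and each gene was represented by its brightest tested probe (11264 genes). The number of arrays limits the precision of every difference. Where a probe was detected on no array of a group, the fold is a bound: the mean of the other group over the mean, per array, of its own value or, if higher, the dimmest detected probe's.

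Probes were named from the platform annotation, in which 27578 had 1 symbol, 13 had several and 21212 were not listed. All 10 iron genes are named with all their probes. Of each wider list the genes past the threshold are named or, where none passed, the gene with the smallest p; the brightest genes that the naming rule also allowed were left out unless a result turned on them. Any other gene of a list was named after its values were seen. The 10 genes and all lists were chosen with earlier results of these data known. Groups and replicate numbers came from the sample descriptions, and slide and scan batches are not given in the sources used here.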

Additional observations from a re-analysis of the deposited data

How the results depend on the processing

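No iron uptake, storage or export gene passed the threshold under 17 of 18 alternatives: no background correction, an offset of 50, cyclic loess, median scaling, detection on all 6 arrays, no detection filter, the deposited normalized values, the replicate block, a robust prior with a trend, the mean of a gene's probes, each array left out, and both outlying arrays left out, chosen after seeing the data. With array weights, which gave CT16 replicate 3 a weight of 0.071, 1 did (CYBRD1, -0.89, adjusted p = 0.00897), 8 wider genes did and 1181 of all genes. CYBRD1 (-1.69 to -0.59), SLC11A2 (-0.63 to -0.14) and ACO1 (0.10 to 0.25) kept their direction throughout. Signs turned for TFRC, SLC39A14 and STEAP3 without CT16 replicate 3, for SLC39A14 also without both arrays (0.15) and with array weights (0.19), and for FTL without control replicate 2. With 1 array left out, TFRC ranged from -0.57 to 0.077, SLC39A14 from -0.25 to 0.15, STEAP3 from -0.056 to 0.36 and FTL from -0.00029 to 0.072. The cause was not tested. Detection on all 6 arrays left 4 genes called of all and 0 wider ones, since LCN2 was no longer tested. Leaving out 1 array gave 3 to 145 genes of all and 1 to 3 wider genes, and leaving out both gave 290 and 4. The replicate block gave 3 genes of all, 0 iron genes and 1 wider gene, LCN2. Same-numbered arrays deviated from their group means with correlations of -0.62, 0.61 and -0.58. Deviations within a group sum to 0 and follow its outlying array, so these values cannot show whether equal numbers pair the cultures. Dim genes near the background (LRP2, HEPH, HFE, SLC40A1) have only bounds or uncertain sizes.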
